A study of Mus musculus with 28 samples.

Results

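Histone genes were followed in the ageing mouse neurogenic niche, in tissue samples and in single cells. They were chosen by name: every gene whose symbol begins with Hist and a cluster number, H2af, H3f3 or H1f, without symbols that hold -ps, which gave 85 of the 37974 genes of the cell table. GENCODE vM21 annotates 3 of the 85 as pseudogenes, H3f3c, Hist1h2aj and Hist1h2al, and gives the identifiers of Hist2h3c1 and Hist2h2bb to noncoding transcripts of other names. They stay in the counts. Of these, 70 have replication-dependent (Hist) names and 15 are variant histone genes (H2af, H3f3 and H1f names). The rule uses symbols and no measured value, but it was set with earlier results of these data known. The tissue table lists 36358 genes by identifier, and 70 of the 85 histone genes have a row there under the same identifier.

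All mice were C57BL/6, and the labels name no transgene or treatment. The subventricular zone (SVZ), a layer along the lateral ventricle where neurons are still born in the adult mouse, was sampled as tissue from mice aged 3 weeks and 18 months, 3 samples per age. From mice aged 1 month and 24 months, 22 cells were sequenced 1 by 1 with Smart-seq2, which copies RNA starting from its poly(A) tail. The cells are labelled Prom1+ (3 of 1 month and 3 of 24 months), Dlx2+/Dcx+ (5 and 4) and Gfap+ (2 and 5). The study gave these names after looking at the cells' own transcriptomes, so differences between subpopulations are descriptions and were not tested. No animal is named for any cell, and each subpopulation at an age therefore counts as 1 sample. The labels do not say whether the 3 tissue samples of an age came from separate animals, and the paper's legend counts samples per age group without saying whether mice were pooled, so p-values measure the spread between these samples only. All values are FPKM, fragment counts scaled to transcript length and library size, so levels are per length. Levels of different genes are set side by side as listed, and the limits given below on poly(A) priming, shared reads and transcript models hold for each such comparison.

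Histones pack DNA into nucleosomes, built on pairs of H2A, H2B, H3 and H4, while H1 binds the linker between them. The replication-dependent genes lie in clusters, are mostly transcribed in S phase when new DNA must be packed, and give short mRNAs that end in a stem-loop instead of a poly(A) tail. The stem-loop is bound by Slbp and the end is cut with help of the U7 small nuclear ribonucleoprotein. Variant genes are scattered, have ordinary poly(A) tails and are also expressed outside S phase, so they supply histones to cells that do not divide. The adult SVZ holds both dividing progenitors and many postmitotic cells.

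The mRNA ends of the family are shown first, because they set apart the 2 kinds of gene and because the cell libraries were primed on poly(A). In the GENCODE vM21 annotation of GRCm38, a protein-coding transcript was matched to 54 replication-dependent and 12 variant members. The histone stem-loop motif (16 bases) was searched on the sense strand over the whole transcript. It was found in 38 of the 54 (70.4%), in 1 of the 12 variants, H2afx, and in 0.310% of 21901 protein-coding genes. For the protein-coding genes it counted wherever in a transcript it lay. Of the 16 replication-dependent members without it, 12 have fewer than 16 annotated bases behind the stop codon, too few to hold it. In the 38 it began 21 to 58 bases after the stop codon (median 31). A poly(A) signal, AATAAA or ATTAAA, was sought in the last 50 bases. Read in 1 transcript per member, it stood in 13 of the 54 (24.1%) and in 8 of the 12 variants. Of all protein-coding genes 77.9% held it in any of their transcripts, a wider count, so the shares cannot be compared directly. H2afv, H3f3a, Hist1h2bp, Hist1h2bq and Hist1h2br held it only in a transcript that was not read. The stem-loop is in capitals below with 7 bases on either side, for the 4 genes with a stem-loop that were highest in the cells among the replication-dependent genes, and for H2afx. Hist1h1b and Hist1h2bc were above Hist2h2ac in mean log2 level over the cells but hold none in this annotation, Hist1h1b with 0 annotated bases behind its stop codon and Hist1h2bc with 742.
Hist1h4d: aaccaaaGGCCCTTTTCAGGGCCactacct
Hist1h1e: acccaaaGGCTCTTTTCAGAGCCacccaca
Hist1h2ab: aaacaaaGGCTCTTTTCAGAGCCacccaca
Hist2h2ac: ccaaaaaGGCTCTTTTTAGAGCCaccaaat
H2afx: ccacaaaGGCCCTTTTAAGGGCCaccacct
All 5 runs lie behind the stop codon in the only exon of their gene, at chr13:23581943-23581972 (Hist1h4d, + strand), chr13:23621775-23621804 (Hist1h1e, − strand), chr13:23751565-23751594 (Hist1h2ab, + strand), chr3:96220411-96220440 (Hist2h2ac, − strand) and chr9:44335233-44335262 (H2afx, + strand) of GRCm38. The 38 genes held 7 different stem-loops, and 21 of them shared the form seen in Hist1h1e and Hist1h2ab. The annotated transcript ran on behind the stem-loop by 3 to 4884 bases (median 91), by 770 bases in Hist1h4d and by 11 in Hist1h2ab.

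The genes sit close together. Of 71 members with a position in this annotation, 45 replication-dependent genes lie on chromosome 13, 44 of them between chr13:21716422 and chr13:23934851. Promoters were taken from RefSeq (GRCm38.p6), where 73 members were matched. In the 150 bases before the start, on both strands and with each motif counted on its own, CCAAT was found in 50 of 61 replication-dependent members (82.0%) and in 25.3% of 27025 promoters. TATAAA was found in 24 (39.3%, against 8.08%), and the octamer ATTTGCAT in 10 (16.4%, against 1.02%). Among the 12 variants matched, 6 held CCAAT, 1 TATAAA and 1 the octamer. The promoters of Hist1h4d and Hist1h1e, the replication-dependent genes with the highest mean log2(FPKM + 1) over the 22 cells, are given with that of H2afz, the H2A variant with the highest, with CCAAT or its reverse complement ATTGG and TATAAA in capitals.
Hist1h4d: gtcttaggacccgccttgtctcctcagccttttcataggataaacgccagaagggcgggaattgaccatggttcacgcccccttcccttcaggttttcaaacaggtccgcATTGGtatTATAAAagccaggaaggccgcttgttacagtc
Hist1h1e: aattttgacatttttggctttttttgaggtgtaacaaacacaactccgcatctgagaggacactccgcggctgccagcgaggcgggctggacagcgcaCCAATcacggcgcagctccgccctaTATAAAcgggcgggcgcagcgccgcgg
H2afz: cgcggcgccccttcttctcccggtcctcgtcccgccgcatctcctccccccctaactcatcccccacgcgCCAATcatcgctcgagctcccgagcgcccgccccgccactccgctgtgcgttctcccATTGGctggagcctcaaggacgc
They span chr13:23581418-23581567 (+), chr13:23622559-23622708 (−) and chr3:137864337-137864486 (+). The replication-dependent pair holds 1 CCAAT or ATTGG and a TATAAA nearer to the start, and H2afz holds CCAAT and ATTGG without TATAAA.

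In the tissue the question was whether histone genes differed between 3 weeks and 18 months. The genes with at least 1 FPKM in at least 3 of the 6 samples were tested, 12287 in all, with limma on log2(FPKM + 1). A log2 fold change is 18 months minus 3 weeks on that scale, on which changes of low genes come out too small. A gene was called at an unadjusted p under 0.05 with an absolute log2 fold change above 1. Of the 85 members, 36 were tested, 34 had a row but too low values (9 of them listed at 0 in all 6 samples) and 15 had no row under their identifier. Among the 36 tested, 6 were called lower and 3 higher at 18 months. Over all tested genes, 2.07% were called lower and 1.83% higher. All 9 also had an adjusted p under 0.05 (Benjamini-Hochberg), as had 1.23% (lower) and 1.04% (higher) of all genes. The median log2 fold change was −0.40 over the 36 (−0.27 under TPM scaling) and 0.09 over all genes (0.13). In bulk tissue fewer cells of a type and less RNA per cell cannot be told apart.

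**Figure D1:**
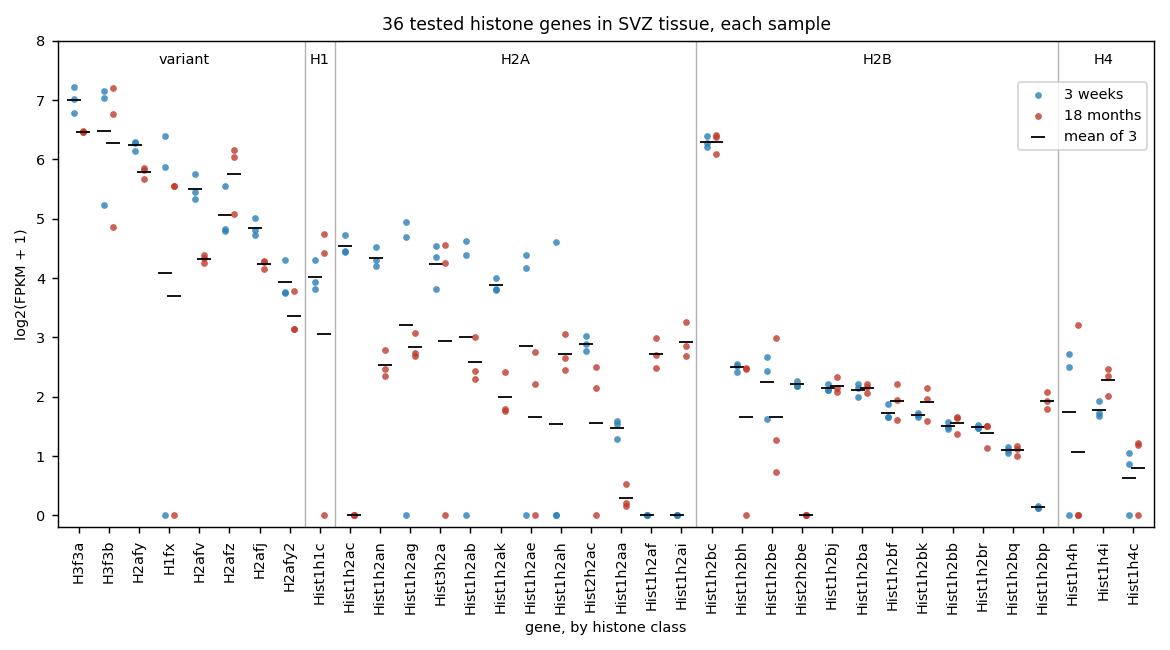
Each point is 1 tissue sample and each short bar the mean of 3, on a log2(FPKM + 1) axis, for the 36 tested histone genes grouped by class (3 weeks blue, 18 months red). H2afv, Hist1h2an and Hist1h2ak had all 18-month samples below all 3-week samples, several H2A genes jumped between 0 and their usual level within an age, and most H2B genes overlapped between ages.

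Among the variants, H2afv stood out. It encodes a form of H2A.Z, the H2A variant found at promoters of active genes. It had 18.0, 19.9 and 19.3 FPKM at 18 months and 39.2, 42.5 and 52.9 FPKM at 3 weeks. The ages did not overlap. The fitted log2 fold change was −1.18 (adjusted p = 0.0144 from limma, standard error 0.14), and the call held under every alternative run for this gene. The other H2A.Z gene, H2afz, had 32.6, 70.8 and 64.9 FPKM at 18 months and 46.1, 26.7 and 27.2 FPKM at 3 weeks. Its ages overlapped and it was not called, with a log2 fold change of 0.70 (95% interval −0.20 to 1.61). Without the first 18-month sample it was called higher, at 1.05. The difference between the 2 genes was not tested.

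The remaining variants stayed under the fold limit. H3f3a, which encodes the H3 variant that is deposited outside replication, had 88.1, 86.9 and 87.5 FPKM in the old and 110, 148 and 129 FPKM in the young samples (log2 fold change −0.54, adjusted p = 0.0783 from limma, standard error 0.13). H2afy, a macroH2A gene linked to silent chromatin, was at 54.0 ± 3.63 and 74.4 ± 4.04 FPKM (SD, n = 3), or −0.46 on the log2 scale (adjusted p = 0.0661 from limma). H2afj, an H2A variant known to build up in senescent cells, was at 17.9 ± 0.952 and 27.9 ± 2.90 FPKM, with −0.60 (adjusted p = 0.0494 from limma). In these 3 genes all 18-month samples lay below all 3-week samples, as in 12.2% of all tested genes (20.9% lay above), and none reached the fold limit. The 8 tested variants had 4 genes lower and 0 higher at an unadjusted p under 0.05, of which 1 was called. At that p alone, 8.93% of all tested genes were lower and 15.4% higher.

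For other variants the samples of an age disagreed. H3f3b, the second gene of the same H3 variant, was at 108, 147 and 28.0 FPKM at 18 months and at 141, 130 and 36.7 FPKM at 3 weeks, so that sample 3 of each age was far below the other 2. H1fx, an H1 variant, was listed at 0 in 18-month sample 3 and in 3-week sample 2 and at 45.7 to 82.9 FPKM in the other 4. H2afx, whose product is phosphorylated next to DNA breaks, was listed at 46.3 FPKM in the first 18-month sample and at 0 in the other 5, and was not tested. H2afy2, the second macroH2A gene, overlapped between ages with 7.83, 7.80 and 12.8 against 18.7, 12.4 and 12.6 FPKM (log2 fold change −0.58, adjusted p = 0.233 from limma). The cause of the low and 0 values was not tested.

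The replication-dependent H2A genes made up 6 of the 9 calls, in both directions. Hist1h2an had 5.90, 4.54 and 4.07 FPKM at 18 months and 18.7, 17.5 and 22.1 FPKM at 3 weeks (log2 fold change −1.81, standard error 0.17, adjusted p = 0.00686 from limma). Hist1h2ak had 4.32, 2.48 and 2.38 FPKM at 18 months and 13.1, 13 and 15.1 FPKM at 3 weeks (−1.89, standard error 0.21, adjusted p = 0.0119 from limma). In both genes the ages were far apart and no sample was listed at 0. Hist1h2aa, known as a testis histone, was low throughout, with 0.444, 0.114 and 0.161 against 1.45, 2.01 and 1.92 FPKM (−1.18, adjusted p = 0.0170 from limma). Hist1h2ac was listed at 0 in all 3 samples of 18 months and had 20.6, 21.1 and 25.4 FPKM at 3 weeks (adjusted p = 0.000129 from limma).

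The 2 H2A genes called higher showed the opposite. Hist1h2ai had 8.54, 6.20 and 5.45 FPKM at 18 months and was listed at 0 in all 3 samples of 3 weeks (adjusted p = 0.00164 from limma). Hist1h2af had 6.99, 5.49 and 4.60 FPKM at 18 months and was likewise listed at 0 at 3 weeks (adjusted p = 0.00162 from limma). No fold is given for genes listed at 0 in all samples of an age.

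Other H2A genes switched between 0 and a common level within an age. At 3 weeks Hist1h2ab was listed at 19.9, 0 and 23.6 FPKM, Hist1h2ag at 0, 24.7 and 29.95, Hist1h2ae at 0, 17.0 and 20.1, and Hist1h2ah at 23.3, 0 and 0. At 18 months the same 4 genes had 3.67 to 7.47 FPKM, apart from a 0 for Hist1h2ae in sample 3. None of the 4 was called, and their log2 fold changes ranged from −1.20 to 1.19. Each was called once 1 of the 3-week samples was left out, Hist1h2ab lower (−1.92) without sample 2, and without sample 1 Hist1h2ae lower (−2.62), Hist1h2ag lower (−1.98) and Hist1h2ah higher, with all remaining 3-week samples of Hist1h2ah listed at 0. Over the 12 tested H2A genes, the values above 0 had a median of 4.98 FPKM at 18 months (30 of 36 values) and 18.7 FPKM at 3 weeks (25 of 36 values). Hist2h2ac (4.66, 0 and 3.45 against 6.38, 5.81 and 7.18 FPKM) and Hist3h2a (18.0, 22.7 and 0 against 22.2, 13 and 19.4 FPKM) were also listed at 0 in 1 sample of 18 months. In all, 11 of the 36 tested members (30.6%) were listed at 0 in some but not all samples of an age, against 4.72% of all tested genes.

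The coding sequences of these genes are close copies. Among 15 H2A genes with a transcript, 11 had at least 1 other H2A gene with 95% identity or more, counted in the annotation over coding sequences of the same length. Hist1h2ac and Hist1h2ag differed at 4 of 390 bases (99.0% identity), as did Hist1h2ai and Hist1h2ag. The processing notes name StringTie and featureCounts without saying how reads that match several copies were shared, so each single H2A value is uncertain. Their part in the calls was not tested.

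Values were also summed over the class. The annotated transcripts of its genes run from 390 to 2482 bases (Hist1h2ac), so the sum too moves with the copy a read was given to, and Hist1h2ac alone adds 20.6 to 25.4 FPKM at 3 weeks and 0 at 18 months. The 17 H2A genes with a row summed to 86.3, 60.6 and 35.4 FPKM at 18 months and to 126, 114 and 165 FPKM at 3 weeks. The 3-week sums were all above the 18-month sums, with means of 135 ± 26.5 and 60.8 ± 25.5 FPKM (SD, n = 3), a ratio of 2.22. After scaling each sample to the same total the ages also did not overlap, at 119 to 288 TPM (18 months) and 373 to 516 TPM (3 weeks). No test was made on sums over members.

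Some members missing from the tissue table by identifier were present under another identifier with the same symbol in GENCODE vM21, 11 of 15, and 3 of these passed the filter. Hist1h2ap was then listed at 28.6, 16.6 and 14.9 FPKM at 18 months and at 101, 92.3 and 124 FPKM at 3 weeks (log2 fold change −2.39, standard error 0.27, adjusted p = 0.0119 from limma). Hist1h2ao was listed at 0, 0 and 3.64 against 68.9, 63.7 and 85.5 FPKM (−5.45, adjusted p = 0.0134 from limma). Its coding sequence equals that of Hist1h2ap base for base. Both would be called lower, and with them the H2A sum was 82.0 ± 30.8 FPKM at 18 months and 313 ± 54.0 FPKM at 3 weeks (SD, n = 3). This addition was chosen after the data were seen. The remaining gene, Hist1h2bl, was not called.

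**Figure D2:**
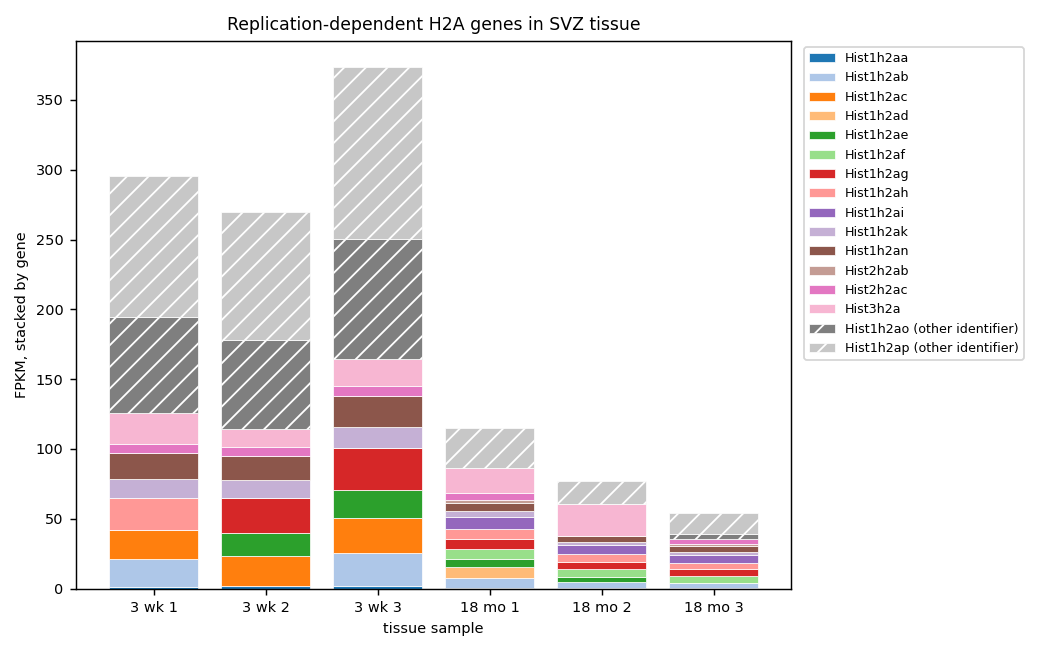
Bars stack the FPKM of replication-dependent H2A genes above 1 FPKM in any tissue sample, 1 bar per sample, with hatching for the 2 genes found only under another identifier. The 3-week bars rise above all 18-month bars while single colours come and go between samples of an age.

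Most H2B genes were not called. Of 12 tested, 10 were not called, and the class sum was 107 ± 7.26 FPKM at 18 months and 108 ± 7.36 FPKM at 3 weeks (SD, n = 3). Hist1h2bc, the highest of the replication-dependent genes matched by identifier in the tissue, had 84.6, 82.5 and 67.0 FPKM at 18 months and 83.2, 76.3 and 73.3 FPKM at 3 weeks, a log2 fold change of 0.00 (95% interval −0.31 to 0.31). Its levels overlapped between ages. Hist2h2be was listed at 0 at 18 months and had 3.82, 3.55 and 3.55 FPKM at 3 weeks, and was called lower (adjusted p = 0.000456 from limma). Hist1h2bp went the other way, with 2.47, 3.23 and 2.81 FPKM at 18 months and 0.0879, 0.119 and 0.0841 FPKM at 3 weeks (log2 fold change 1.8, standard error 0.11, adjusted p = 0.00200 from limma). The other 8 H2B genes without a 0 (Hist1h2ba, Hist1h2bb, Hist1h2be, Hist1h2bf, Hist1h2bj, Hist1h2bk, Hist1h2bq and Hist1h2br) had 0.659 to 6.97 FPKM and log2 fold changes between −0.58 and 0.21. Hist1h2bh was listed at 0 in the second 18-month sample and had 4.34 to 4.88 FPKM in the other 5.

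In the H1, H3 and H4 classes 4 genes were tested. The only H1 gene tested, Hist1h1c, was listed at 0 in the first 18-month sample and had 25.7 and 20.5 FPKM in the other 2, against 18.6, 13 and 14.3 FPKM at 3 weeks. It was not called, and without that 0 the log2 fold change was 0.57. No H3 gene with a Hist name passed the filter, and the 8 H3 members with a row summed to 0.620 to 2.63 FPKM at 18 months and 1.04 to 4.68 FPKM at 3 weeks. Of this, 2.21 FPKM in 18-month sample 1 and 2.63 FPKM in 3-week sample 2 belong to Hist2h3c1, whose identifier is a noncoding transcript in GENCODE vM21. Of the H4 genes Hist1h4i, Hist1h4c and Hist1h4h were tested and 0 were called by limma, with 1 at an unadjusted p under 0.05: Hist1h4i, with 3.04, 4.52 and 4.12 FPKM at 18 months and 2.29, 2.81 and 2.21 FPKM at 3 weeks (0.50, adjusted p = 0.145). Hist1h1e and Hist1h4d, which led the cells, did not exceed 1.19 and 1.81 FPKM in any tissue sample. Whether the tissue RNA was selected for poly(A) is unclear from the sources, so the levels of stem-loop mRNAs in tissue and cells cannot be compared.

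Genes that make and place histones were set beside them, from lists chosen by function. Their counts are to be read beside the 2.07% of all tested genes called lower and the 8.93% lower at an unadjusted p alone. Of the genes that process histone pre-mRNA, 15 of 20 were tested and 0 were called by limma, with 3 lower at an unadjusted p under 0.05 (Npat, Srrt and Sympk, named after their values were seen). Of 19 tested histone chaperones and deposition factors 1 was called, Chaf1b, a subunit of the complex that places H3 and H4 on new DNA, at 1.23 ± 0.410 FPKM (18 months) and 3.88 ± 0.911 FPKM (3 weeks; SD, n = 3; log2 fold change −1.13, adjusted p = 0.0444 from limma). Of 33 tested S phase genes 5 were called lower, Rrm2, Uhrf1, Cdca7, Mcm2 and Tk1, with log2 fold changes from −1.85 to −1.11 and a list median of −0.56. Of 26 tested G2 and M phase genes 19 were called lower, among them Ube2c (−2.26), Cdca3 (−1.85) and Top2a (−1.68), with a list median of −1.19, and 15 kept an adjusted p under 0.05. No gene of the last 2 lists was called higher, and at an unadjusted p under 0.05 the count was also 0. At that p alone 20 S phase and 23 G2 and M phase genes were lower. Of the chaperones and deposition factors 3 were lower and 1 higher, where 15.4% of all tested genes were higher.

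Summed levels of cell type markers also differed between ages in the same samples. The summed level of the neuroblast markers in the table (5 of 7) was 54.1 to 61.5 FPKM at 18 months and 92.8 to 142 FPKM at 3 weeks, and that of the active stem cell markers (5 of 5) 101 to 241 and 256 to 292 FPKM. The oligodendrocyte markers (5 of 6) summed to 2666 to 3328 FPKM at 18 months and 16938 to 18698 FPKM at 3 weeks, with Olig1 listed at 0 in all 6 samples, and the neuron markers (6 of 7) to 1982 to 2496 and 1070 to 1667 FPKM. The sums rest on few genes and not all markers moved alike. Mbp made up the largest part of the gap in the oligodendrocyte sum (log2 fold change −3.44), with −0.79 to −1.16 for Mag, Mobp and Mog. In the neuroblast list Dlx2 (−1.71) and Dlx1 (−1.26) were called lower, and Dcx (−0.96), Dlx5 (−0.30) and Sp9 (0.75) were not called. Ppp1r1b made up the largest part of the neuron sum, with log2 fold changes of 1.27 for Ppp1r1b, 0.16 for Snap25 and −0.02 for Rbfox3, and Slc1a3 most of the stem cell sum (−0.62), with Hes5 at 0.28. The sums of microglia, astrocyte and endothelial markers overlapped between ages, while those of ependymal markers (3 of 4) were 150 to 181 and 113 to 142 FPKM. The part of these differences in the histone values was not tested.

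In the single cells the first question was which histone genes each subpopulation carried. Each label was first set beside its own marker genes. The paper selected the cells by qPCR of markers that include these genes, so this is no independent check. All 6 Prom1+ cells held Prom1 above 1 FPKM, and all 9 Dlx2+/Dcx+ cells held Dlx2 and Dcx. All 7 Gfap+ cells held Gfap (48.7 to 194 FPKM), while Gfap was at 0 in all Prom1+ cells. The markers were not exclusive at 1 FPKM. Dlx2 passed this limit in each cell labelled Gfap+ and in 2 Prom1+ cells, with a highest value of 2.79 FPKM. In Dlx2+/Dcx+ cells its lowest value was 270 FPKM. Prom1 passed the limit in 2 Dlx2+/Dcx+ cells (highest 6.29 FPKM), while the lowest Prom1+ cell had 1.49 FPKM. All 7 cells labelled Gfap+ also carried oligodendrocyte genes at high levels, Mbp at 6346 to 19572 FPKM and Mag at 924 to 4960 FPKM, against at most 95.4 and 1.97 FPKM in any other cell. Of the 5 astrocyte markers Aldh1l1 was at 0 in all 7, Aqp4 reached 0.0934 FPKM and Slc1a2 15.2 FPKM, Gja1 was above 1 FPKM in 2 cells, and Aldoc in 5 (median 373 FPKM). The paper itself assigns these cells to the oligodendrocyte lineage and not to astrocytes. They are called the cells labelled Gfap+ here, after their label. Mki67, a proliferation marker, was at 45.1 to 179 FPKM in Prom1+ cells, 6.03 to 321 FPKM in Dlx2+/Dcx+ cells and 0.135 to 16.9 FPKM in cells labelled Gfap+. Each cell held 4398 to 6626 genes over 1 FPKM.

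Of the 85 histone genes, 60 were above 1 FPKM in at least 1 cell, 21 were at 0 in all 22 cells and 43 were above 1 FPKM in at least 3 cells, 32 replication-dependent and 11 variant. The 43 are described below. A gene that was low in most cells passed this filter only through the cells where it was high. Variant genes gave most of the summed histone FPKM. Their sum was 4021 to 8043 FPKM in Prom1+ cells, 4024 to 18537 FPKM in Dlx2+/Dcx+ cells and 1157 to 3513 FPKM in cells labelled Gfap+. The 70 replication-dependent genes summed to 39.5 to 4685, 531 to 4358 and 137 to 1057 FPKM, or a median share of 27.8%, 19.0% and 22.3% of all histone FPKM.

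**Figure D3:**
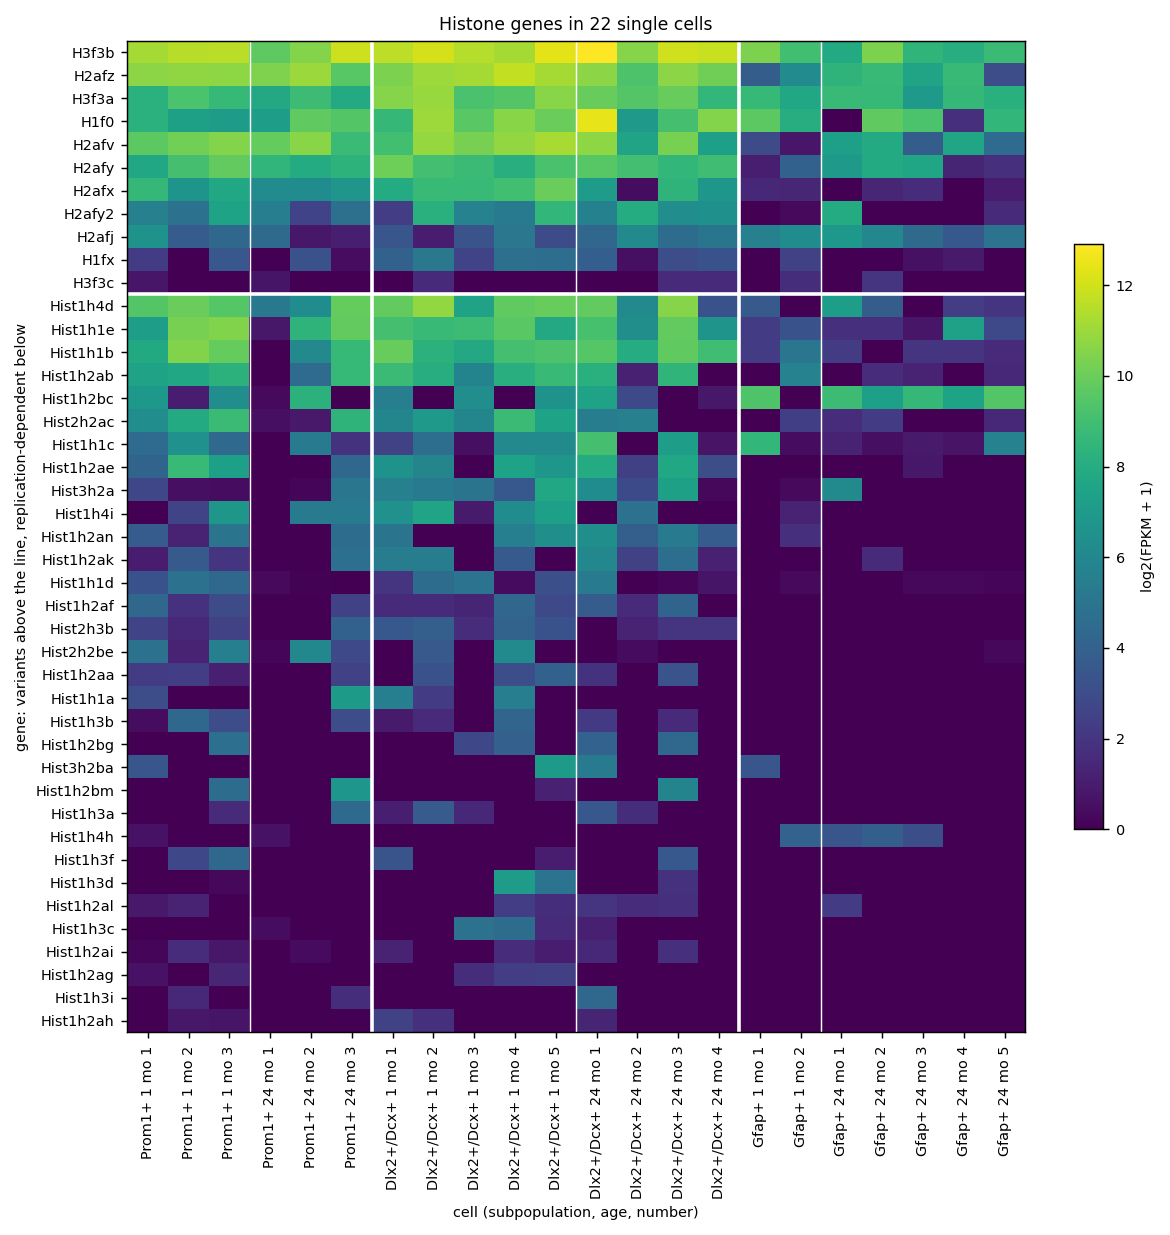
Rows are the 43 histone genes above 1 FPKM in at least 3 cells (variants above the horizontal line), columns the 22 cells by subpopulation and age, and colour the log2(FPKM + 1) level. H3f3b and H3f3a were present in all cells and H3f3c was at most 3.01 FPKM, Hist1h4d, Hist1h1e and Hist1h1b were high in most Prom1+ and Dlx2+/Dcx+ cells, and below the line Hist1h2bc was the brightest gene in 6 of 7 cells labelled Gfap+ and at 0 in the other.

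The most abundant histone gene was H3f3b, with a lowest, median and highest value of 844, 2643 and 3847 FPKM in Prom1+ cells, 1516, 3661 and 7698 FPKM in Dlx2+/Dcx+ cells and 241, 439 and 1318 FPKM in cells labelled Gfap+. H3f3a, its partner gene, was lower at 219, 351 and 610 FPKM, 374, 946 and 1904 FPKM, and 120, 387 and 429 FPKM. Both were present in every cell. For both genes the values in cells labelled Gfap+ overlapped with those in Prom1+ cells.

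Both H2A.Z genes had their lowest median in the cells labelled Gfap+. H2afz had 740, 1661 and 2005 FPKM (lowest, median, highest) in Prom1+ cells, 639, 1639 and 3439 FPKM in Dlx2+/Dcx+ cells and 7.27, 186 and 425 FPKM in cells labelled Gfap+, without overlap between the last and the first 2. H2afv had 452, 1037 and 1554 FPKM, 157, 1245 and 2371 FPKM, and 0.692, 21.8 and 236 FPKM, so that the cells labelled Gfap+ overlapped with Dlx2+/Dcx+ cells. H2afx was at 74.6 to 385 FPKM in Prom1+ cells and at 112 to 981 FPKM in 8 of 9 Dlx2+/Dcx+ cells, and at most 2.11 FPKM in cells labelled Gfap+. H2afx is the variant that carries the histone stem-loop printed above.

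The macroH2A genes had their lowest medians in cells labelled Gfap+ too, overlapping with Prom1+ cells. H2afy had 209, 344 and 900 FPKM (lowest, median, highest) in Prom1+ cells, 275, 526 and 1057 FPKM in Dlx2+/Dcx+ cells and 1.15, 14.9 and 237 FPKM in cells labelled Gfap+. H2afy2 had medians of 36.4, 80.3 and 0 FPKM, but 1 cell labelled Gfap+ had 248 FPKM, above every Prom1+ cell (at most 178 FPKM). H2afj was the exception among the H2A variants, with medians of 15.6, 18.3 and 48.1 FPKM. The linker variant H1f0, known from resting and differentiated cells, had medians of 233, 1013 and 368 FPKM and spread widely, over 123 to 5563 FPKM among Dlx2+/Dcx+ cells and over 0 to 855 FPKM among cells labelled Gfap+. H1fx (at most 35.0 FPKM) and H3f3c (at most 3.01 FPKM) were low.

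**Figure D4:**
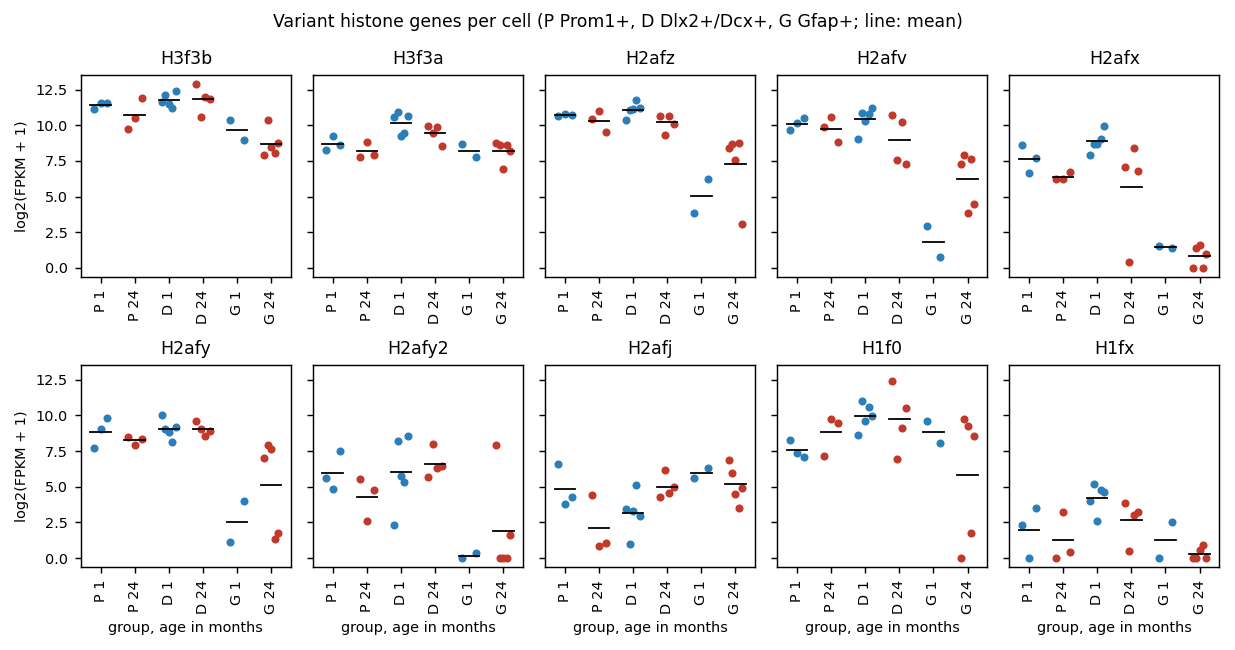
Points are single cells and lines group means, on a log2(FPKM + 1) axis, for 10 variant genes in the 6 groups (1 month blue, 24 months red). H2afz, H2afv, H2afx and H2afy were low in the Gfap+ groups (G), H3f3a there was below Dlx2+/Dcx+ cells (difference −1.59) but near Prom1+ cells (−0.23), H2afj was not low, and ages overlapped in nearly all panels.

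The leading replication-dependent genes came from the H1, H2A and H4 classes. Hist1h4d was at 36.8, 722 and 985 FPKM (lowest, median, highest) in Prom1+ cells, 8.5, 885 and 1823 FPKM in Dlx2+/Dcx+ cells and 0, 4.16 and 144 FPKM in cells labelled Gfap+. Hist1h1e was at 0.783, 616 and 1390 FPKM, 81.8, 458 and 905 FPKM, and 0.746, 3.88 and 168 FPKM. Hist1h1b, another linker histone gene, was at 0, 315 and 1397 FPKM, 222, 550 and 973 FPKM, and 0, 3.01 and 33.0 FPKM. For Hist1h1b every Dlx2+/Dcx+ cell was above every cell labelled Gfap+, while 1 Prom1+ cell was at 0.

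Several H2A genes were also lowest in cells labelled Gfap+. Hist1h2ab had medians of 188, 272 and 1.34 FPKM in Prom1+, Dlx2+/Dcx+ and Gfap+ cells, Hist2h2ac of 159, 59.4 and 1.75 FPKM, and Hist1h2ae of 18.0, 99.1 and 0 FPKM. Hist1h4i, Hist1h2an and Hist1h2ak reached 185, 86.2 and 63.9 FPKM in Dlx2+/Dcx+ cells, and each was at 0 in 6 of 7 cells labelled Gfap+. Hist3h2a exceeded 1 FPKM in 2 of 6 Prom1+ cells, 8 of 9 Dlx2+/Dcx+ cells and 1 of 7 cells labelled Gfap+. Hist1h1c varied within every subpopulation, up to 91.0, 558 and 369 FPKM.

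Hist1h2bc was highest in cells labelled Gfap+ by its median. It was at 0, 383 and 693 FPKM (lowest, median, highest) in cells labelled Gfap+, 0, 40.9 and 316 FPKM in Prom1+ cells and 0, 6.33 and 175 FPKM in Dlx2+/Dcx+ cells. Of the 7 cells labelled Gfap+ 6 held it above 150 FPKM and the other was at 0. Its annotated transcript has 2 exons, and no stem-loop motif was found behind its stop codon. In the tissue it also led the replication-dependent genes matched by identifier.

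Counted over the 32 replication-dependent genes in the filter, 18 were lower by more than 1 on the log2(FPKM + 1) scale in cells labelled Gfap+ than in Prom1+ cells and 2 higher, ages weighted equally, with 33.0% of 11332 genes lower and 22.1% higher. Against Dlx2+/Dcx+ cells 20 were lower and 2 higher (27.6% and 24.7% of all genes). The median difference over the 32 was −1.54 and −1.38, and over all genes −0.32 and −0.13. Some of the 32, such as Hist1h2aa and Hist1h2af, were at 0 in all 7 cells labelled Gfap+ and passed the filter only through other cells. Such genes could only come out lower or equal in cells labelled Gfap+, so these counts and medians are descriptions and no independent result. Of the 11 variants 6 and 9 were lower and 1 and 1 higher in these comparisons. Between Dlx2+/Dcx+ and Prom1+ cells, 7 replication-dependent genes were higher and 2 lower in Dlx2+/Dcx+ cells, with 13.5% of all genes higher and 24.4% lower, and 4 variants were higher and 0 lower, by a fixed difference and with no test. The difference of H2afx was −5.92 and −6.15 against Prom1+ and Dlx2+/Dcx+ cells, that of Hist1h4d −5.96 and −6.05, and that of Hist1h2bc 2.70 and 3.27.

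Length behind the stop codon was set beside these levels. Of 21 replication-dependent genes with 150 or more annotated bases after the stop codon, 11 were above 1 FPKM in at least 3 cells, and of 33 with fewer, 16. The medians of the mean log2(FPKM + 1) level were 0.88 and 0.33, with ranges of 0 to 6.67 and 0 to 6.30. The part of poly(A) priming in the levels of stem-loop mRNAs was not tested.

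The next question was whether histone genes differed between 1 and 24 months within a subpopulation. In Prom1+ cells the 3 cells of 1 month carried 18, 21 and 24 replication-dependent genes above 1 FPKM, and the 3 cells of 24 months 1, 10 and 22. Their sums were 1598, 4685 and 4360 FPKM at 1 month and 39.5, 977 and 3423 FPKM at 24 months. Cell 1 of 24 months was at 0 or below 1 FPKM for all but Hist1h4d, although its variants summed to 4021 FPKM. Cell 3 of 24 months lay within the range of the young cells, so the ages overlapped.

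By gene, Hist1h1b was at 225, 1397 and 914 FPKM in the Prom1+ cells of 1 month and at 0, 65.6 and 404 FPKM in those of 24 months. Hist1h1e was at 151, 1245 and 1390 against 0.783, 333 and 898 FPKM. Hist1h4d was at 709, 985 and 734 against 36.8, 77.5 and 941 FPKM. All 3 genes overlapped between ages, Hist1h1e through old cells 2 and 3 and the others through old cell 3. Hist1h1d was the 1 member of 43 whose ages did not overlap in Prom1+ cells, with 8.58 to 28.5 FPKM at 1 month and at most 0.275 FPKM at 24 months. Over all 11332 genes the old cells lay below all young cells in 4.10% and above them in 3.90%. Of the 32 genes, 16 were lower by more than 1 at 24 months and 1 higher, and 24.0% of all genes were lower and 22% higher. The median difference was −0.99 over the 32 and 0.00 over all genes. Of the 11 variants 3 were lower (H2afj, H2afy2 and H2afx) and 1 higher (H1f0).

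These differences rested on few cells. The mean over the 32 genes differed by −1.39 between ages on the log2(FPKM + 1) scale, by −0.66 without 24-month cell 1 and by −2.19 without cell 3. With a pseudocount of 0.1 it was −2.44.

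In Dlx2+/Dcx+ cells the old cells fell into unequal pairs. The replication-dependent sum was 3842, 3378, 1149, 3721 and 3442 FPKM in the 5 cells of 1 month and 3976, 531, 4358 and 628 FPKM in the 4 cells of 24 months. Old cells 2 and 4 lay below all young cells, and old cells 1 and 3 above all of them. Hist1h4d was at 893, 1823, 171, 852 and 948 FPKM against 885, 69.2, 1506 and 8.5 FPKM, and Hist1h2ab at 448, 266, 55.5, 272 and 412 against 296, 1.24, 352 and 0 FPKM. Hist1h1b did not follow this split as strongly, with 222 to 973 FPKM at 1 month and 726, 256, 871 and 493 FPKM at 24 months. Hist2h2ac was the 1 member whose ages did not overlap, with 59.4 to 438 FPKM at 1 month and 0 to 48.5 FPKM at 24 months. Over all genes the old Dlx2+/Dcx+ cells lay below all young cells in 1.08% and above them in 0.644%.

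Of the 32 replication-dependent genes, 12 were lower by more than 1 at 24 months in Dlx2+/Dcx+ cells and 3 higher, with 27.1% of all genes lower and 16.6% higher. The median difference was −0.46, against −0.14 over all genes. Of the variants H2afx, H1fx and H2afv were lower and H2afj higher. H2afx was at 245, 416, 419, 514 and 981 FPKM at 1 month and 137, 0.325, 332 and 112 FPKM at 24 months, and its ages overlapped in 1 old cell. The mean over the 32 genes differed by −0.81, and by −0.33 without 24-month cell 4, −0.56 without cell 2 and −1.27 without cell 1.

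In cells labelled Gfap+ only 2 cells were of 1 month. The replication-dependent sum was 1057 and 137 FPKM at 1 month and 703, 194, 428, 353 and 760 FPKM at 24 months. Hist1h2bc gave a large part of it in 6 of the 7 cells and none in the other, at 659 and 0 FPKM in the young and 463, 156, 383, 177 and 693 FPKM in the old cells. Of the 32 genes, 4 were lower and 3 higher past 1, with 19.6% of all genes lower and 29.6% higher. Of the variants H1f0 was lower, and H2afv, H2afy, H2afz and H2afy2 were higher. H2afv was at 6.64 and 0.692 FPKM at 1 month and 157, 236, 13.1, 200 and 21.8 FPKM at 24 months, all old cells above both young ones, and H2afz at 13.2 and 75.2 FPKM against 336, 411, 186, 425 and 7.27 FPKM. Hist1h1b was the other member without overlap, with 3.92 and 33.0 FPKM at 1 month and at most 3.70 FPKM at 24 months. Over all genes the old cells lay below both young cells in 3.10% and above them in 2.80%. Whether the age differences of H2afv differ between subpopulations was not tested.

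The replication-dependent genes were finally set beside lists of S phase and of G2 and M phase genes in the same cells. All 42 S phase and all 34 G2 and M phase genes passed the filter in cells. Rrm2, Pcna and Tyms led the S phase list and Hmgb2, Top2a and Ube2c the other. Rrm2 had medians of 641, 640 and 3.90 FPKM in Prom1+, Dlx2+/Dcx+ and Gfap+ cells, and Top2a of 617, 1044 and 5.37 FPKM. Slbp, which binds the stem-loop, had medians of 732, 440 and 13.5 FPKM. Among the chaperones Set had medians of 872, 451 and 296 FPKM, Rbbp4 of 259, 276 and 253 FPKM and Atrx of 276, 341 and 102 FPKM, and among the processing genes Snrpe of 259, 403 and 299 FPKM and Snrpb of 358, 205 and 53.4 FPKM.

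**Figure D5:**
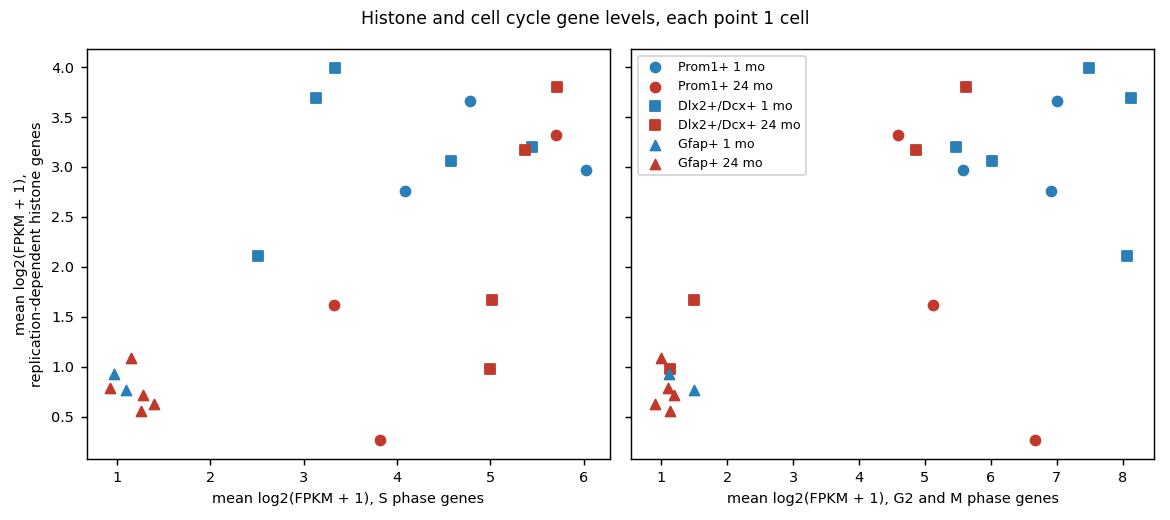
Each point is 1 cell, with the mean log2(FPKM + 1) of 32 replication-dependent histone genes on the vertical axis against the mean of 42 S phase genes (left) and of 34 G2 and M phase genes (right). Cells labelled Gfap+ (triangles) sit at the low end of both axes, and the other cells spread without a single line.

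Across the 6 Prom1+ cells, the mean of the 32 genes had a Pearson r of 0.66 and a Spearman rho of 0.71 with the S phase mean, and −0.11 and 0.14 with the G2 and M phase mean. Leaving out the 2 cells farthest from the median on the horizontal axis, r was 0.72 with the S phase and −0.04 with the G2 and M phase mean. Across the 9 Dlx2+/Dcx+ cells, r was −0.08 (−0.20 without the 2 farthest cells) and rho 0.12 with the S phase mean, and 0.72 and 0.55 with the G2 and M phase mean. Without the 2 farthest cells the last r was −0.11, so it rested on these 2, old cells 2 and 4, which were lowest in both measures (1.67 and 0.98 for histone genes, 1.49 and 1.14 for G2 and M phase genes). Across the 7 cells labelled Gfap+, r was −0.52 and rho −0.64 with the S phase mean, and −0.10 and −0.21 with the G2 and M phase mean. Without the 2 farthest cells r was −0.56 and −0.76. These values describe the cells, which share library steps and may share animals, and no p is given.

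Old and young Dlx2+/Dcx+ cells also differed in the lists themselves. At 24 months 25 of 42 S phase genes were higher by more than 1 and 32 of 34 G2 and M phase genes lower, with median differences of 1.42 and −4.07, where 16.6% of all genes were higher and 27.1% lower. The 4 old cells had S phase means of 4.99 to 5.72 and the 5 young cells 2.51 to 5.44, and G2 and M phase means of 1.14 to 5.63 and 5.47 to 8.12, so that the ages overlapped in both, and the lowest G2 and M phase means were those of old cells 2 and 4. In Prom1+ cells the medians were −0.36 and −1.04. The old Prom1+ cell with the lowest listed replication-dependent sum (39.5 FPKM, after poly(A) priming) had an S phase mean of 3.82. Its G2 and M phase mean was 6.67, and both were inside the ranges of the other Prom1+ cells. The part of cell cycle position in the age differences of histone genes was not tested.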

How the data were processed

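RNA was measured in 6 SVZ tissue samples and 22 single cells of C57BL/6 mice. The authors deposited FPKM values, 1 column per sample or cell, and no per-sample column was left unmapped (0). The submitters' processing notes name HISAT2, StringTie, featureCounts and GRCm38. Positions in the cell table start within 1000 bases of the GRCm38 position for 0 of 71 members and were not used, so the cell values may rest on another build and other transcript models than those the sequences came from. Versions and the annotation release are not given in the sources used here. The labels give 1 extraction text for all samples, that of the single cells, whereas a figure legend of the paper calls the tissue data total RNA-seq.

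The low FPKM values of 1-transcript genes of at least 300 bases lay on steps (56.5% to 57.8% of values within 0.02 of a whole multiple). In a transcript of 500 bases 1 step was worth 0.0450 to 0.0546 FPKM, which bounds the precision of low values. Whether 1 step is 1 fragment was not tested. No step was sought in the cell values, so the depth of the cells is unknown here. An FPKM is a share of its own sample, so a large change in an abundant gene shifts the others.

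For tissue genes reaching 1 FPKM in at least 3 samples, limma 3.58.1 (lmFit, eBayes with trend, R 4.3.3) compared log2(FPKM + 1) between ages without other covariates, adjusting p over all genes (Benjamini-Hochberg). Tested on simulated data for the tissue comparison (11988 genes, 200 changed by 2 on the log2 scale), it called 94.0% of the changed genes (75.5% with an adjusted p) and 1.03% of the others. Cells were not tested, and the background is all genes above 1 FPKM in at least 3 cells. Pearson's r across genes was 0.889 to 0.916 within an age and 0.861 to 0.894 between ages. Python 3.11.15, pandas 2.3.3 and scipy 1.17.1 were used. Sequences came from GENCODE vM21 and RefSeq. The tissue lists were matched by GENCODE symbols.

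Named are all tested members, expressed variants, the 12 replication-dependent genes highest in cells, untested members only above 1 FPKM in a tissue sample, list genes called in tissue and the 3 of each list highest in cells. Members and lists were chosen with earlier results of these data known. A marker gene that is not reported here was left out of its list.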

Additional observations from a re-analysis of the deposited data

Results flagged for a closer look

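In groups of 4 or 5 cells, the gap between an extreme cell and its neighbour was compared with Dixon's limit on log2(FPKM + 1) for 23 named genes, 69 gene and group combinations, of which chance alone would mark about 1 in 20. The gap passed the limit in 13. In 6 of the 13 all other cells of the group were at 0, where any value above 0 passes, so the chance rate does not apply to them: Hist1h4i in Dlx2+/Dcx+ cells of 24 months, H3f3c in both groups, and Hist1h2ae, Hist3h2a and Hist1h2ak in cells labelled Gfap+.

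In Dlx2+/Dcx+ cells of 1 month a low cell stood apart for Hist1h2ab (55.5 FPKM), Hist1h2ae (0 FPKM) and Hist1h4i (0.914 FPKM), and a high cell for H3f3c (1.93 FPKM). The low cell was the third one in all 3 genes. In those of 24 months a high cell stood apart for Hist1h4i (28.1 FPKM).

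In cells labelled Gfap+ of 24 months a high cell stood apart for Hist1h1c (51.4 FPKM), Hist1h2ae (0.811 FPKM), Hist3h2a (71.9 FPKM), Hist1h2ak (2.02 FPKM), H2afy2 (248 FPKM) and H3f3c (3.01 FPKM). A low cell stood apart for Hist1h1b (0 FPKM) and H2afz (7.27 FPKM).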

How the results depend on the processing

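In the tissue the counts of 6 members called lower and 3 called higher held under a pseudocount of 0.1, no filter, TPM scaling, quantile normalization, adjusted p and the replicate block (6 and 3 with the block). Whether the sample numbers pair the samples cannot be told from these values. Deviations of same-numbered samples correlated at −0.0963, −0.0107 and −0.0980, and those of differently numbered samples at −0.0158 to 0.113. No call changed with the block. Leaving out each sample gave 6 to 8 lower and 3 to 4 higher, and 0 calls were lost. These 2 choices were added after the data were seen. Adding rows of the same symbol gave 8 lower, and leaving out members listed at 0 in any sample gave 4 lower and 1 higher. The median log2 fold change of the 36 members was −0.27 under TPM scaling, −0.44 under quantile normalization and −0.29 with a pseudocount of 0.1, and that of all genes 0.13, 0.03 and 0.10.

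Among members not called, the sign of the log2 fold change turned with a pseudocount of 0.1 for Hist1h2ab (0.48) and Hist1h2ag (0.57), under TPM scaling for these 2 (0.028 and 0.11) and Hist1h2bq (0.022), and under quantile normalization for Hist1h2bc (−0.030), Hist1h2ba (−0.062), Hist1h2bj (−0.044) and Hist1h2bb (−0.051). With each sample left out in turn, the values ran from −0.81 to 0.51 for H3f3b, −0.059 to 0.11 for Hist1h2bc, −1.80 to 0.57 for Hist1h1c, −2.43 to 1.47 for H1fx, −0.036 to 0.074 for Hist1h2ba, −0.15 to 0.56 for Hist1h4c, −1.92 to 0.39 for Hist1h2ab, −0.035 to 0.093 for Hist1h2bj, −1.98 to 0.49 for Hist1h2ag, −0.16 to 0.015 for Hist1h2br, −0.041 to 0.044 for Hist1h2bq and −2.11 to 0.17 for Hist3h2a. Leaving out 1 sample made 7 more members pass: without 18-month sample 1 H2afz (1.05) and Hist2h2ac (−1.82), without 18-month sample 3 Hist1h2be (−1.24), without 3-week sample 2 Hist1h2ab (−1.92), and without 3-week sample 1 Hist1h2ae (−2.62), Hist1h2ag (−1.98) and Hist1h2ah (higher, its other 3-week samples listed at 0). The cause was not tested.

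In cells, a pseudocount of 0.1 moved the replication-dependent genes higher at 24 months to 2 in Prom1+ and 6 in Dlx2+/Dcx+ cells, the variants higher in Dlx2+/Dcx+ cells to 2, and the variants lower in cells labelled Gfap+ to 4, which the median over cells put at 3. With each cell left out, the replication-dependent genes lower at 24 months were 13 to 20, 10 to 16 and 3 to 6 in Prom1+, Dlx2+/Dcx+ and Gfap+ cells, those higher 0 to 5, 1 to 6 and 1 to 3, the variants lower 2 to 4, 2 to 5 and 1 to 4, and the variants higher 0 to 1, 1 to 2 and 3 to 4. The mean differences ran from −2.19 to −0.66, −1.27 to −0.33 and −0.18 to −0.01. TPM scaling kept all these counts within 1.5 times.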
